A study of Mus musculus with 3 samples.

Results

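Retnlg, Cxcr2, Csf3r, Trem1, Padi4, Fpr1 and Fpr2 are 7 genes used as markers of mature neutrophils. They were taken by symbol from a deposited table of 57561 rows, of which 20649 carry an Ensembl identifier, and each symbol had 1 row. All 7 had a mean above 1 FPKM over the libraries, the minimum set for a comparison. FPKM is the number of sequenced fragments of a gene scaled to its exon length and to the library's sequencing depth.

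RNA was sequenced from mouse myeloid-derived suppressor cells (MDSCs), a mixed population of immature granulocytic and monocytic cells known to hold T cell responses down. Per the labels, femur marrow cells of the C57BL/6 strain were cultured for 4 days with GM-CSF plus IL6, and total RNA was used. There was 1 library each from wild type (WT), lnc57Rik-/- and lncGM1082-/- mice, the knockouts each lacking a long noncoding RNA. The series' design text is ambiguous on whether each genotype had a further sample, and pooling within a column is not stated. Of the knockouts, only lnc57Rik-/- mice appear in the growth protocol. The sources used here do not state the age of the mice, how many were pooled or the kind of deletion. A single library per genotype allows neither a replicate check nor a standard deviation nor a test. Every interval below is an exact 95% interval (Clopper-Pearson for ratios, Poisson for levels) that covers counting error only, not differences between mice, cultures or library preparations.

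Neutrophils mature in the marrow under granulocyte colony-stimulating factor (G-CSF) and acquire the receptors that later guide them to infected tissue. Cxcr2 reads CXC chemokines and draws mature cells out of the marrow, and Fpr1 and Fpr2 read formylated peptides released by bacteria and mitochondria. Csf3r is the G-CSF receptor, Trem1 is an immunoglobulin-type receptor that amplifies inflammatory signals through the adaptor Tyrobp, and Retnlg is a secreted protein of the resistin family. Of the 7 products, 5 are cell surface receptors and 1 is secreted. Padi4 is the exception to a surface or secreted label, being an enzyme inside the cell that converts arginine in histones to citrulline when neutrophils cast extracellular traps. Fpr1, Fpr2, Trem1 and Csf3r are also found on monocytes, so in a mixed culture these genes are not read from neutrophils alone.

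The label of the cultures was checked against 8 genes of such cells, Itgam, Ly6g, Ly6c2, S100a8, S100a9, Arg1, Nos2 and Cybb. Ly6g, S100a8 and S100a9 also stand in the list of mature neutrophil genes below, and Ly6c2 in that of monocyte genes. Presence of such genes therefore does not tell MDSCs from other myeloid cells. All 8 were present in every library, the lowest value being 21.1 FPKM for Ly6g in the lnc57Rik-/- library. By the rule of size given below, 3 of them (Ly6g, Arg1 and Nos2) were lower there, Arg1 at 262 FPKM against 626 in WT and Nos2 at 426 against 886. In the lncGM1082-/- library 1, Ly6g, was lower. Over all rows compared, 1.53% were lower in the lnc57Rik-/- and 0.946% in the lncGM1082-/- library. About 18485093 fragments lay behind the WT values, 17593432 behind those of lnc57Rik-/- and 18280434 behind those of lncGM1082-/-. The FPKM values of the 7 genes corresponded to whole fragments in every library, to within 0.05 fragments, so the fragments behind each value could be read back. The knocked-out transcripts were not used here to check the labels. In bulk RNA, fewer cells of a type and less RNA per cell cannot be told apart, and this holds for every difference below.

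The genes lie at 6 separate places on GRCm38, the build that the table's positions follow. Retnlg spans chromosome 16 from 48872608 to 48874498, and Cxcr2 spans chromosome 1 from 74153989 to 74161246. Chromosome 4 carries Csf3r from 126024550 to 126044440 and Padi4 from 140745865 to 140774236. Trem1 spans chromosome 17 from 48232768 to 48246924. Fpr1, from 17876471 to 17883940 on the minus strand of chromosome 17, and Fpr2, from 17887824 to 17893952 on its plus strand, stand head to head with 3883 bases between them. All values are sums over each gene's exons, whose joint length ran from 608 bases for Retnlg to 4835 for Padi4.

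The windows around the start sites of 4 of the genes are shown here because their levels, given next, set them apart. Retnlg, Cxcr2 and Csf3r were less than 0.5 of WT in the lnc57Rik-/- library, and Padi4 was the gene nearest to its WT level there. Each line holds 250 bases before and 50 after the RefSeq start (GRCm38.p6), 5′ to 3′ on the gene's strand. The windows are chr16:48872358-48872657 (plus strand) for Retnlg, chr1:74153744-74154043 (plus) for Cxcr2, chr4:126024409-126024708 (plus) for Csf3r and chr4:140774154-140774453 (minus) for Padi4. Capitals mark matches, on either strand, to TTNNGNAA, the type of site bound by C/EBP factors, or to GAGGAAG, the type bound by PU.1 and other ETS factors.
Retnlg: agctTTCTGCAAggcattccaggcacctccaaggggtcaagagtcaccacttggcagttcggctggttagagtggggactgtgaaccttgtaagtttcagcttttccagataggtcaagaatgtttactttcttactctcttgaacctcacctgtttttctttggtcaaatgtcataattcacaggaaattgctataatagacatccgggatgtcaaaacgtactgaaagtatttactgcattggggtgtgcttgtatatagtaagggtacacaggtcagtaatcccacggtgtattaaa
Cxcr2: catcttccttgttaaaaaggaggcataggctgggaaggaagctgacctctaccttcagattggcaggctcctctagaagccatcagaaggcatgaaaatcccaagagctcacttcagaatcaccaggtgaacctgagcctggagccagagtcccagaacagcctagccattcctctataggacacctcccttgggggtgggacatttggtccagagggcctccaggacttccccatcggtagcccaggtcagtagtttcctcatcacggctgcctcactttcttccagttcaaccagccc
Csf3r: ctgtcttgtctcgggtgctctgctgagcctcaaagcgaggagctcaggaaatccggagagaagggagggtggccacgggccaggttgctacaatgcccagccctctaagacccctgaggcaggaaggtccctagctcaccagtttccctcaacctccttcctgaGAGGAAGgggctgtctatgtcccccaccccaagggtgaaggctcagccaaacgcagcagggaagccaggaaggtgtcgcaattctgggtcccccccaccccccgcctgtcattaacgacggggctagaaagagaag
Padi4: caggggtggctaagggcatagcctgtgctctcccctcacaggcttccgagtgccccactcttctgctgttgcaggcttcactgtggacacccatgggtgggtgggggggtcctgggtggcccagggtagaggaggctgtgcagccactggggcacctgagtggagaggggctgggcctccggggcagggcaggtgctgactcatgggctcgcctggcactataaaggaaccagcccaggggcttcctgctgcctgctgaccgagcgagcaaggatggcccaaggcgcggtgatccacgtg

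Neither motif was found in the Cxcr2 and Padi4 windows. Retnlg held 1 match to TTNNGNAA (TTCTGCAA, from position -246 relative to the start site), and Csf3r held 1 match to GAGGAAG, from position -86. Of the windows not printed, that of Trem1 held 1 match to TTNNGNAA (TTGTGAAA) and those of Fpr1 and Fpr2 held 3 each. In all, 4 of the 7 genes held TTNNGNAA, against 40.7% of 32544 promoter windows of the same length, and 1 of the 7 held GAGGAAG, against 13.4%. The genes with TTNNGNAA, Retnlg, Trem1, Fpr1 and Fpr2, stood at 0.286, 0.547, 0.597 and 0.857 of WT in the lnc57Rik-/- library. Those without it, Cxcr2, Csf3r and Padi4, stood at 0.351, 0.489 and 0.994. Any link between matches and levels was not tested. A match is a run of letters and does not show that a factor binds.

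In the WT library the formyl peptide receptors were the most abundant of the 7 and Padi4 the least. Fpr1 stood at 365 FPKM (interval 358 to 373), rank 65 of 18487 Ensembl rows above 0. Fpr2 followed at 183 (178 to 189) and Csf3r at 130.0 (127 to 133). Retnlg had 57.5 FPKM (53.1 to 62.1). Trem1 at 40.1 (38.4 to 41.8) and Cxcr2 at 39.8 (38.2 to 41.5) did not differ beyond their intervals, and Padi4 came last at 32.3 (31.1 to 33.5). FPKM is scaled to exon length, so these levels can be roughly compared between genes. The intervals cover neither reads shared with other genes, described below, nor differences in which transcripts were made.

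The order was kept for the most abundant genes and broke up among the others. Fpr1, Fpr2 and Csf3r held ranks 1, 2 and 3 among the 7 in all 3 libraries. Retnlg, at rank 4 in WT, was at rank 6 in the lnc57Rik-/- library and last in the lncGM1082-/- library, where it did not differ from Cxcr2 beyond the intervals. Padi4, last in WT, was at rank 4 in the lnc57Rik-/- library and rank 5 in the lncGM1082-/- library. The summed level of the 7 genes was 848 FPKM in WT, 523 in the lnc57Rik-/- and 764 in the lncGM1082-/- library, and Fpr1 and Fpr2 together made up 64.7%, 71.7% and 71.2% of it. The plot of levels by gene shows these shifts.

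**Figure D1:**
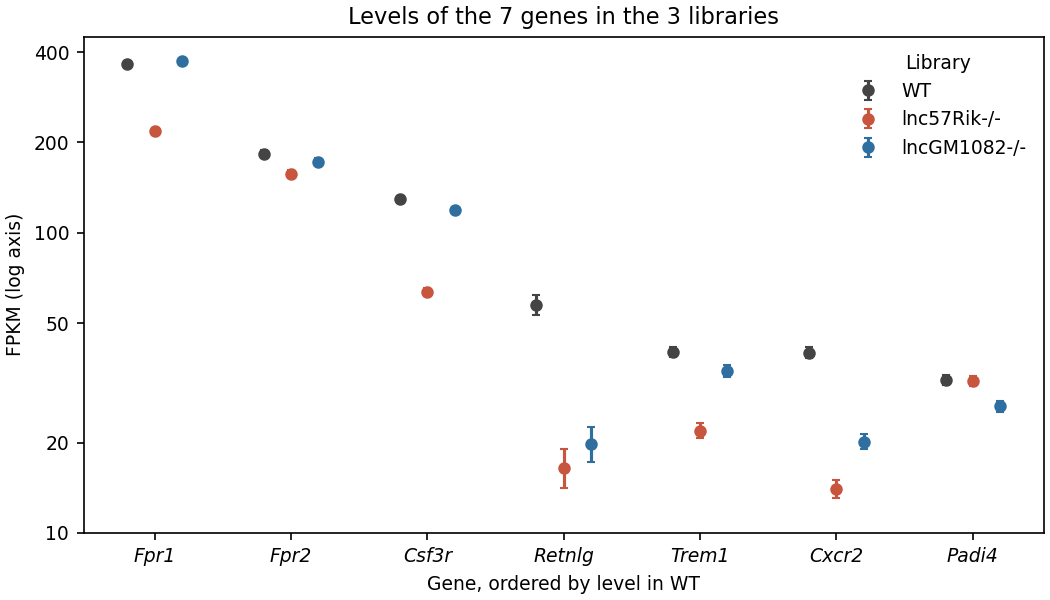
FPKM (log axis) of the 7 genes, ordered by level in WT, in the WT, lnc57Rik-/- and lncGM1082-/- libraries; points are single libraries and bars are exact 95% Poisson counting intervals, smaller than the point for abundant genes. Retnlg and Cxcr2 sit well below WT in both knockouts, Csf3r, Trem1 and Fpr1 mainly in the lnc57Rik-/-, and Padi4 has 32.3 and 32.1 FPKM in WT and lnc57Rik-/-.

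The first comparison asked how the 7 genes differ in MDSCs without lnc57Rik. Retnlg, Cxcr2 and Csf3r were lower than in WT, at ratios of 0.286, 0.351 and 0.489. Trem1 and Fpr1 stood at 0.547 and 0.597 of WT, Fpr2 at 0.857 and Padi4 at 0.994. A gene is called higher or lower here by size alone, when log2 of the ratio of FPKM + 1 is at least 1 or at most -1; this is the rule of size. By that rule 3 of the 7 genes were lower and 0 higher. Over all 22202 rows with a mean of at least 1 FPKM, 1.53% were lower and 3.39% higher, and over the 12041 Ensembl rows among them 1.40% and 3.79%. The median log2 fold of the 7 genes was -0.84, beside 0.07 for all rows and 0.10 for Ensembl rows. These genes were chosen with earlier results of these data known, so the count describes them and supports nothing further.

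Retnlg went from 57.5 FPKM (646 fragments) in WT to 16.5 (176 fragments), with a ratio interval from 0.241 to 0.339 and a log2 fold of -1.74. Of the Ensembl rows, 27 (0.224%) had a fold as low or lower. Cxcr2 went from 39.8 FPKM (2245 fragments) to 14.0 (751 fragments), with an interval from 0.323 to 0.382 and a log2 fold of -1.44, and 0.407% of Ensembl rows were as low. Both therefore lay far out in the lower tail of the transcriptome, on fragment numbers that leave little counting error.

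Csf3r, the receptor for the cytokine that drives granulocyte production, went from 130.0 to 63.5 FPKM, on 8674 and 4033 fragments. Its log2 fold of -1.02 (ratio interval 0.470 to 0.507) lay just past the rule of size. It no longer passed with a pseudocount of 5, at -0.98, or when the summed FPKM of the libraries was made equal to that of WT, at -0.999. The level was still about 1 log2 unit below WT in each case.

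Trem1 went from 40.1 to 21.9 FPKM, a log2 fold of -0.84 (ratio interval 0.509 to 0.587). Fpr1 had 365 and 218 FPKM, a log2 fold of -0.74 (0.577 to 0.618). Neither passed the rule of size, though 2.08% and 2.73% of Ensembl rows had folds as low. Fpr2 had 183 and 157 FPKM, a log2 fold of -0.22 (0.820 to 0.896), and 15.5% of Ensembl rows were as low. The neighbouring formyl peptide receptor genes thus differed in size of change.

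Padi4 had 32.3 and 32.1 FPKM on 2888 and 2731 fragments. Its ratio interval, 0.943 to 1.05, held 1, and of the 7 genes it was the only one for which this was so in the lnc57Rik-/- library. The sign of its log2 fold of -0.01 depended on the scaling, with values from -0.14 to 0.01 over the alternatives. The other 6 genes were below WT under every alternative. Scaling by median ratios moved the median of all rows by -0.11, to -0.04, and Padi4, at -0.14, was below that median. In the main setting Padi4, at -0.01, was also below the medians of 0.07 for all rows and 0.10 for Ensembl rows.

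Ratios between genes of the same library do not depend on how libraries are scaled. The FPKM ratio of Cxcr2 to Padi4 was 1.23 (interval 1.17 to 1.30) in WT and 0.436 (0.402 to 0.473) in the lnc57Rik-/- library. The ratio of Csf3r to Padi4 was 4.02 (3.86 to 4.20) and 1.98 (1.88 to 2.08), and that of Fpr1 to Fpr2 was 1.997 (1.93 to 2.07) and 1.39 (1.33 to 1.45). In each pair the intervals of the libraries did not overlap, so between these libraries the genes differed by unequal amounts beyond counting error. Padi4 hardly differed between them, so its pairs largely restate the folds above.

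The second comparison asked the same of MDSCs without lncGM1082. Here Retnlg was lower and Cxcr2 was close to the rule of size, and the other 5 genes lay between 0.817 and 1.02 times WT. By the rule of size 1 of the 7 genes was lower and 0 were higher. The background was 0.946% lower and 0.865% higher over all rows, and 1.05% and 0.880% over Ensembl rows. The median log2 fold of the 7 genes was -0.20, beside 0.01 for all rows. Both comparisons use the same WT library, so a value that is unusual in that library enters both, and the pair of results for a gene is not 2 independent observations.

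Retnlg went from 57.5 to 19.8 FPKM (220 fragments), a ratio of 0.344 (0.294 to 0.402) and a log2 fold of -1.49, with 0.365% of Ensembl rows as low. Cxcr2 went from 39.8 to 20.1 FPKM (1121 fragments), a ratio of 0.505 (0.470 to 0.543) and a log2 fold of -0.95, with 1.18% of Ensembl rows as low. These genes had the lowest ratios of the 7 in each knockout.

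Padi4 had 26.4 FPKM in the lncGM1082-/- library against 32.3 in WT, a ratio of 0.817 (0.773 to 0.863), and 9.53% of Ensembl rows had a log2 fold as low as its -0.28. Trem1 had 34.7 against 40.1 FPKM, a ratio of 0.866 (0.814 to 0.921). Csf3r had 119 against 130.0 FPKM, a ratio of 0.916 (0.889 to 0.945), and Fpr2 had 172 against 183, a ratio of 0.938 (0.899 to 0.979). Fpr1 had 373 against 365 FPKM, and its ratio of 1.02 (0.990 to 1.05) was the only one whose interval held 1. These 5 genes lay within the bulk of the transcriptome, where between 9.53% and 53.9% of Ensembl rows had a fold as low or lower.

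**Figure D2:**
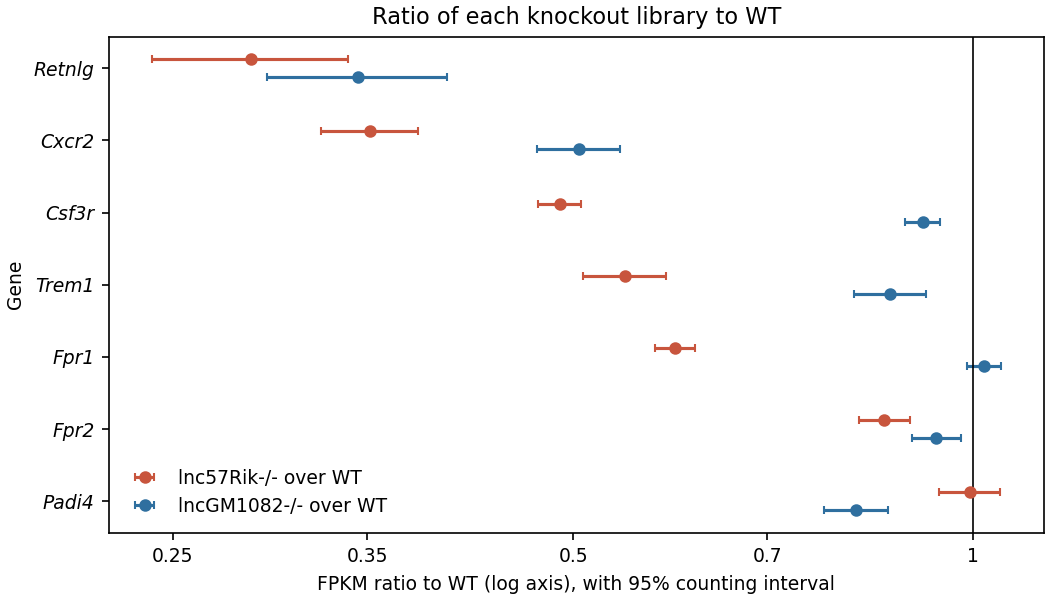
FPKM ratio of each knockout library to WT (log axis) for the 7 genes, ordered by the lnc57Rik-/- ratio; points are single libraries, bars are exact 95% counting intervals and the line marks a ratio of 1. Retnlg and Cxcr2 lie lowest in both knockouts, and Fpr1 stands at 0.597 in the lnc57Rik-/- and at 1.02 in the lncGM1082-/-.

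**Figure D3:**
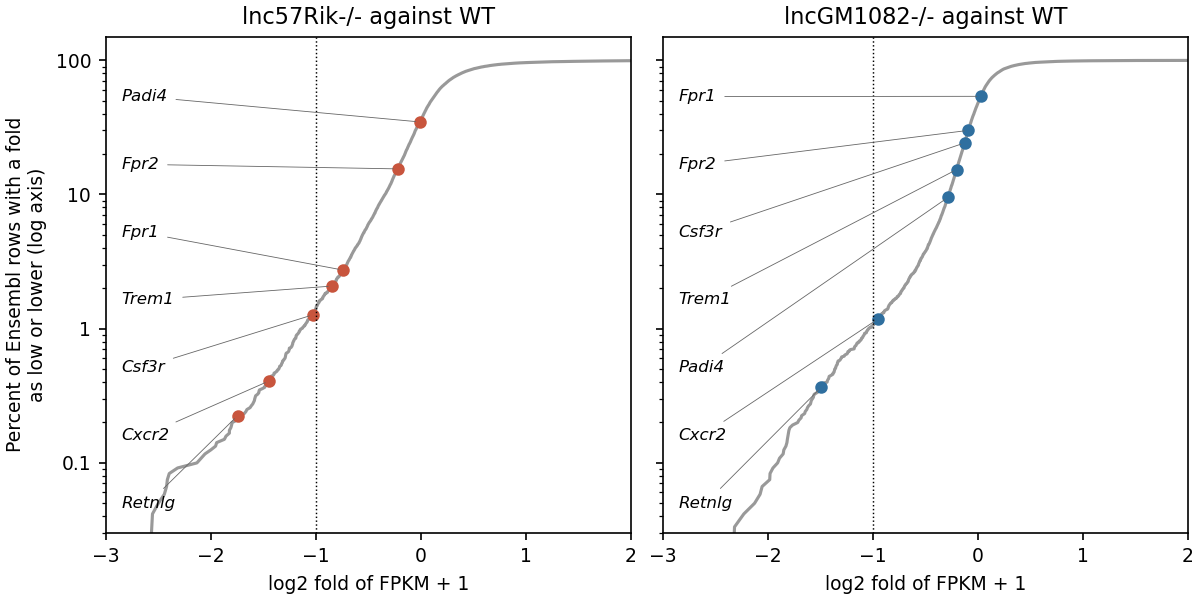
Percent of the 12041 Ensembl rows compared (log axis) with a log2 fold as low or lower, against the log2 fold of FPKM + 1, in each knockout; the grey curve is all Ensembl rows, the points are the 7 genes and the dotted line is a log2 fold of -1. In the lnc57Rik-/- 5 genes lie in the lowest 2.73% of rows, and in the lncGM1082-/- Retnlg and Cxcr2 lie in the lowest 1.18%.

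The knockouts were also compared directly, without the WT library. None of the 7 genes passed the rule of size, while 1.31% of all rows were higher and 3.07% lower in the lncGM1082-/- library, and 1.17% and 3.36% of Ensembl rows. Csf3r had the largest ratio of lncGM1082-/- to lnc57Rik-/- at 1.88 (1.81 to 1.95), a log2 fold of 0.90, and 1.65% of Ensembl rows had a fold as high. Under median ratio scaling its log2 fold was 1.02 and passed the rule. Fpr1 followed at 1.71 (1.65 to 1.77), Trem1 at 1.58 (1.47 to 1.70) and Cxcr2 at 1.44 (1.31 to 1.58), and Fpr2 stood at 1.09 (1.05 to 1.14). For Retnlg the ratio of 1.20 had an interval from 0.982 to 1.48, so a difference between the knockouts was not detectable at this depth. Padi4 went the other way, with 26.4 FPKM in the lncGM1082-/- against 32.1 in the lnc57Rik-/- library and a ratio of 0.822 (0.777 to 0.869).

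Other neutrophil genes were read beside the 7. Each list count from here on stands beside the shares of all rows. These were 1.53% lower and 3.39% higher in the lnc57Rik-/- library, and 0.946% and 0.865% in the lncGM1082-/- library. With shares this small, 0 past the rule in a short list shows little about that list. Primary granule genes, made at the promyelocyte stage, had 0 of 5 compared genes past the rule in either knockout, with median log2 folds of 0.16 in the lnc57Rik-/- and 0.19 in the lncGM1082-/- library. The most abundant of them, the elastase gene Elane, had 321, 299 and 350 FPKM in WT, lnc57Rik-/- and lncGM1082-/-. It was the only 1 of the 5 below WT in the lnc57Rik-/- library, where the other 4 were above WT. Of 8 secondary and tertiary granule genes, made later, 2 were lower in the lnc57Rik-/- library (median -0.14) and 0 in the lncGM1082-/- library (median -0.54). The lower ones were the gelatinase Mmp9, from 177 to 62.6 FPKM, and the collagenase Mmp8, from 453 to 199. Ngp, a granule protein, had 2025, 2072 and 1368 FPKM in WT, lnc57Rik-/- and lncGM1082-/-. Lcn2, next in abundance in this list, had 1683, 1061 and 1317 FPKM. Of the 8 genes, 5 were below WT to any extent in the lnc57Rik-/- library and 8 in the lncGM1082-/- library.

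Of 20 other genes of mature neutrophils, 19 were compared. In the lnc57Rik-/- library 4 were lower and 0 higher, with a median of -0.23. These were the surface marker Ly6g, from 73.4 to 21.1 FPKM, Stfa2l1, from 70.7 to 26.1, the glycoprotein gene Lrg1, from 109 to 41.6, and the protease inhibitor Slpi, from 1450 to 713. In the lncGM1082-/- library 2 were lower and 0 higher, with a median of -0.15. These were Ly6g, at 33.9 FPKM, and BC100530, from 12.5 to 4.99. The most abundant genes of the list were the alarmins S100a9 and S100a8, which did not pass the rule in either knockout. S100a9 had 4521 FPKM in WT, 4509 in the lnc57Rik-/- and 2833 in the lncGM1082-/- library, and S100a8 had 2718, 2610 and 1672.

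Markers of other cells differed in the lnc57Rik-/- library too. The 8 B lineage genes, none of them at 0 in any library, summed to 7.84 FPKM in WT, 147 in the lnc57Rik-/- and 11.0 in the lncGM1082-/- library, and 8 of 8 were higher in the lnc57Rik-/-. Some of them, such as Vpreb3 with 0.126 FPKM in WT, passed the filter only through that library. The 9 dendritic cell genes summed to 173, 523 and 253 FPKM in the same order, with 4 of 7 compared genes higher in the lnc57Rik-/- (Cd83, Fscn1, Ccl22 and Ccr7) and 1 of 7 in the lncGM1082-/- (Ccr7). The 5 basophil and mast cell genes summed to 65.4, 143 and 74.2 FPKM, with 3 of 5 higher in the lnc57Rik-/-, and the 4 eosinophil genes found summed to 229, 333 and 263 FPKM, with 1 of 3 compared genes higher. Among 11 monocyte and macrophage genes compared in the lnc57Rik-/-, 2 were higher and 3 lower, and in the lncGM1082-/- 0 and 1. Fn1, lower in both, had 216 FPKM in WT, 48.4 in the lnc57Rik-/- and 82.2 in the lncGM1082-/-. C1qb, the higher gene with the larger fold in the lnc57Rik-/-, had 1.64, 6.16 and 3.42 FPKM in the same order. Vcan and F13a1 were the other lower ones in the lnc57Rik-/-, at log2 folds of -1.37 and -1.09. T and NK cell genes had at most 0.775 FPKM apart from Nkg7 (10.9 to 14.7), with Trac at 0 in WT and the lnc57Rik-/-, Klrb1c at 0 in both knockouts and Cd3g at 0 in the lncGM1082-/-. The part of any of these cells in the values of the 7 genes was not tested.

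**Figure D4:**
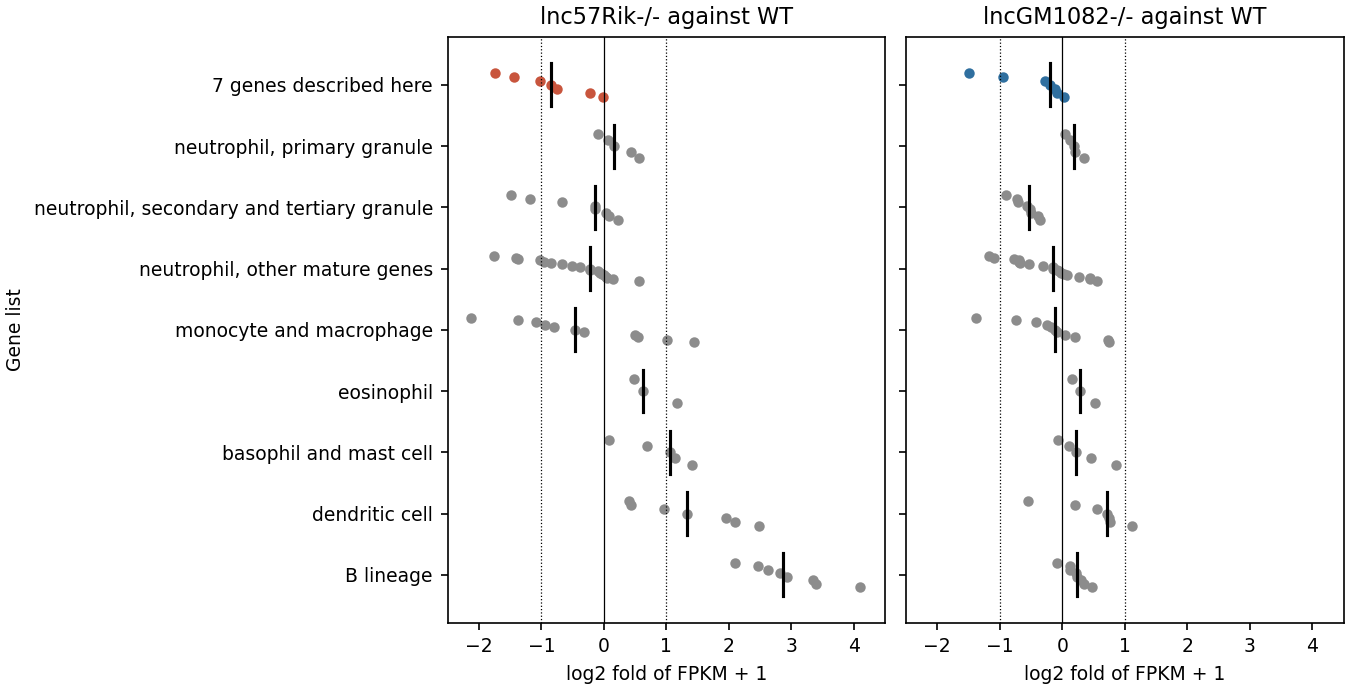
Log2 fold of FPKM + 1 of each knockout against WT for the 7 genes and for lists of neutrophil and other cell type genes; each point is a gene averaging 1 FPKM or more, black bars are list medians and dotted lines mark log2 folds of -1 and 1. In the lnc57Rik-/- the 7 genes have a median of -0.84 and the B lineage genes one of 2.87; in the lncGM1082-/- these are -0.20 and 0.23.

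RNA of genes for ligands of the receptors was present in the cultures themselves, and the proteins were not measured. Of 10 listed, 9 were in the table and compared, and 1 was lower in the lnc57Rik-/- library, 0 in the lncGM1082-/- library and 0 higher in either, with medians of -0.24 and -0.07. The lower one was Saa3, an acute phase protein of a family that can act on Fpr2, at 348 FPKM in WT, 94.5 in the lnc57Rik-/- and 235 in the lncGM1082-/-. Cxcl2, a Cxcr2 ligand, had 949, 657 and 1142 FPKM, and Cxcl3 had 690, 427 and 658. Csf3, the gene of G-CSF, was picked out after its values were seen; it had 98.7, 83.5 and 117 FPKM and did not pass the rule.

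Relatives of the 7 genes differed widely in abundance. The colony-stimulating factor receptor genes Csf2rb, Csf2ra and Csf1r, picked out after their values were seen, had 330, 225 and 147 FPKM in WT. Each was above Csf3r, at 130.0 there. Of 25 listed, 22 were in the table and 13 were compared. In the lnc57Rik-/- library 3 were higher and 1 lower, and in the lncGM1082-/- library 0 passed the rule. The higher ones were Retnla, a resistin-family gene linked to alternatively activated macrophages (0.814 FPKM in WT, 6.84 in the lnc57Rik-/-, the only library that brought its mean above 1), Cxcr5, a B cell homing receptor (1.92 and 5.49), and Cxcr4, the receptor that holds cells in the marrow (23.4 and 49.2). The lower one was Retn, resistin itself, at 1.88 and 0.432 FPKM. Cxcr1, the other receptor for neutrophil-attracting CXC chemokines, had a mean under 1 FPKM and was not compared.

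For each of the 7 genes, the nearest genes were sought among 6388 named Ensembl genes whose mean was 5 FPKM or more. Likeness was the distance between the pairs of log2 folds against WT, over 3 libraries, which is too few to single out a shared pattern. Retnlg had no gene within 0.1, and its nearest were Ly6g at 0.40 and Fn1 at 0.40. Cxcr2 had 1, Mmp9 at 0.06, followed by Nppc at 0.17. Csf3r had 6 within 0.1, with Tmem119 and F13a1 nearest, Trem1 had 12, with Ceacam18 and March1, and Fpr1 had 12, with Nfil3 and Nnat. Padi4 had 166, with Mcmbp and Magi1, and Fpr2 had 283, with Irf3 and Chmp1a.

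How far reads can be told apart differs between the genes. In GENCODE M21, Retnlg, Trem1 and Padi4 shared 0 of their 50-base stretches with transcripts of any other gene, and Fpr1 shared 1 of 1275, with Fpr2. Cxcr2 shared 6.68% and Csf3r 10.7%, spread over 220 and 402 other genes. Fpr2 shared 408 of 1295 (31.5%), of which 368 were in the gene Gm5966 and 82 in Fpr3. There are 2 further rows that overlap Fpr2 on its own strand, Fpr3 with at most 0.583 FPKM and a NONCODE row with 38.3, 27.1 and 32.3 FPKM in WT, lnc57Rik-/- and lncGM1082-/-. A NONCODE row on the strand opposite Padi4 had 5.91, 8.69 and 8.12 FPKM. How shared reads and strand were treated is not stated in the labels or the table, so reads from elsewhere may enter or leave the values of Fpr2, Padi4, Csf3r and Cxcr2, which was not tested.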

How the data were processed

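The authors deposited FPKM per gene, 1 column per library, and no other column of sample values was present. The submitters' processing notes list mm9 and Bowtie 0.12.2 without a role or order. The table's positions follow GRCm38: of 20649 Ensembl rows, 20634 were found in GENCODE M21 and 19570 had the identical position. No counting software is named.

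Fragment totals were recovered from the steps of low FPKM values with GENCODE exon lengths. Under 20 fragments, between 99.0% and 99.2% of values of genes with 1 transcript were whole within 0.05 fragments, where 10% would be by chance; for genes with several transcripts, which 5 of the 7 are, it was 93.3% to 93.6%. For Retnlg the table's gene ends lie 15 bases outside GENCODE's, and its length was extended by them. Ratio intervals are exact (Clopper-Pearson, 95%).

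Log2 folds used a pseudocount of 1 FPKM, which understates changes of low genes, and rows with a mean of at least 1 FPKM. Scripts were tested on simulated data. Members, lists and rules were chosen with earlier results of these data known. All 7 genes are named; of each other list, up to 4 members past the rule of size with the largest fold, filled up from the most abundant where fewer passed. Sequences are from RefSeq (7 of 7 genes matched). Alternatives were pseudocounts of 0.1 and 5, other filters and scalings, and sums over rows of a symbol. Python 3.11.15, NumPy 2.4.6, SciPy 1.17.1 and pandas 2.3.3 were used.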

Additional observations from a re-analysis of the deposited data

How the results depend on the processing

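Counts over all rows depended on the settings. With a pseudocount of 0.1 the higher and lower rows were 1397 and 722 in the lnc57Rik-/- against WT, 570 and 520 in the lncGM1082-/- against WT, and 707 and 1273 between the knockouts. With a pseudocount of 5 they were 179 and 46, 23 and 18, and 40 and 142. With each library scaled to a common, larger sum they were 2164 and 1047, 978 and 860, and 1093 and 1926, where the pseudocount and the minimum mean, both kept at 1, weigh less. With a minimum mean of 5 FPKM they were 234 and 122, 57 and 40, and 112 and 200. Under median ratio scaling they were 597 and 481 in the lnc57Rik-/- (55.4% higher, against 68.9%), 193 and 222 in the lncGM1082-/-, and 401 and 533 between the knockouts (42.9% higher, against 29.9%).

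Of the 7 genes, none reversed a called direction. Under median ratio scaling their median log2 fold in the lnc57Rik-/- was -0.97, and 1 gene, Csf3r, was higher between the knockouts. Scaling to the WT sum was added after the data were seen. Summing the rows of a symbol changed nothing for these genes, since each has 1 row. No paired analysis was possible because each genotype has 1 library, and leaving out a library was not possible for the same reason.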

Other observations

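Among signalling partners of the receptors 0 of 14 were called in either knockout, with median log2 folds of -0.17 in the lnc57Rik-/- and -0.09 in the lncGM1082-/- library. The most abundant were Socs3, the feedback inhibitor induced by G-CSF and IL-6, with 441, 260 and 417 FPKM in WT, lnc57Rik-/- and lncGM1082-/-, and Tyrobp, the adaptor of Trem1, with 296, 185 and 254 FPKM. Rac2, a GTPase of the neutrophil oxidase and of migration, had 234, 174 and 206 FPKM, and Gnai2, a G protein subunit used by chemoattractant receptors, had 148, 126 and 139.

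Of 8 other chemoattractant receptors, 0 were called in either knockout, with medians of -0.14 and -0.15. The chemokine receptor Ccr1 had 125, 85.2 and 112 FPKM in WT, lnc57Rik-/- and lncGM1082-/-. Ptafr, the receptor for platelet-activating factor, had 60.4, 62.0 and 82.4 FPKM, and C5ar1, the receptor for the complement fragment C5a, had 52.9, 50.6 and 49.9. Ltb4r1, a leukotriene B4 receptor picked out after its values were seen, had 56.5, 30.8 and 43.1 FPKM, with a log2 fold of -0.85 in the lnc57Rik-/- library.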
